A study of Homo sapiens with 24 samples.

Results

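The comparison described here is the change with time in culture in HEK293 cells that received no peptide. HEK293 is an established human embryonic kidney cell line. The members are the 12 control arrays of a set of 24, chosen by their labels: 6 arrays of cells harvested 4 h after water was added and 6 arrays of cells harvested 72 h after it. The other 12 arrays came from cells given MOTS-c, a 16-residue peptide encoded in the mitochondrial 12S ribosomal RNA gene, at 10 µM for the same times, and they serve only to show where the control time course differs. All groups were grown in phenol-free DMEM with fetal bovine serum, the labels name no genetic change, and RNA was read on Illumina bead arrays. The labels do not say whether medium was renewed between the harvests, how dense the cells were, or whether the 6 replicates were separate cultures, and where they were not, the p-values reflect technical spread alone.

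Cells left in one dish use up nutrients, acidify the medium, accumulate what they secrete and come into contact with their neighbours. The pathways that read these conditions are well known. SREBP factors set the sterol and fatty acid synthesis genes by the supply of lipid, ATF4 raises amino acid transport, transfer RNA charging and stress genes when amino acids run short or the endoplasmic reticulum is loaded, and NF-kB carries cytokine signals to chemokine genes and to its own inhibitors. Histone genes of the replication-dependent clusters are transcribed mainly in S phase, when new DNA is packed.

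At 72 h 8320 of the 13283 genes tested differed from 4 h in control cells, which is 62.6% of them, with 4237 higher (31.9%) and 4083 lower (30.7%) by limma at an adjusted p under 0.05. Most of these changes were small, with a median size of 0.43 on the log2 scale among the called genes. A change of at least 2-fold was called for 396 genes upward (2.98%) and 195 downward (1.47%), and a change of at least 4-fold for 28 genes upward and 0 downward. The 6 values at 72 h did not overlap the 6 at 4 h for 4728 genes (35.6%), 2513 upward (18.9%) and 2215 downward (16.7%). With so many genes called, each count below is to be read against these shares.

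The arrays of the times were set apart as a whole. The first principal component of the control arrays held 71.5% of the variance, and the correlation between arrays was 0.987 to 0.996 within a time and 0.961 to 0.975 between the times. Probes detected numbered 21059 to 21680 per array at 4 h and 21853 to 23405 at 72 h, without overlap, and the 5th percentile of raw intensity was 44.4 ± 0.685 against 40.9 ± 1.18 (SD, n = 6 each). Both differences had a two-sided exact permutation p of 0.00216, the smallest that the splits of 12 arrays allow. Mean raw intensity was 516 ± 32.9 at 4 h and 459 ± 74.5 at 72 h (exact permutation p = 0.128), with the brightest control array, replicate 5 at 72 h, at 597, and without that array the difference grew to -85.2 (exact permutation p = 0.00216). Median raw intensity, with all 12 arrays, was 77.7 ± 2.8 at 4 h and 67.6 ± 6.76 at 72 h (exact permutation p = 0.0173). The labels name no chip or hybridisation day, and the part of such batches in the time change was not tested. In bulk RNA, fewer cells of a kind and less of a transcript per cell cannot be told apart.

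The label was checked against marker lists. Neurofilament and other neuronal genes, which HEK293 cells are known to express, passed the detection filter for 17 of 19 listed genes. All 19 had a probe assigned to 1 gene. Of 18 kidney tubule and nephron progenitor genes 15 had such a probe and 6 passed the detection filter. PAX2, a transcription factor of the nephric lineage, was detected on 2 of 6 arrays at 4 h and 1 of 6 at 72 h. Markers of other cell types passed the filter in part. They were 5 of 9 keratinocyte and carcinoma genes (8 with a probe), 5 of 10 fibroblast genes and 2 of 7 hepatocyte genes (6 with a probe). Also passing were 6 of 13 leukocyte genes (12 with a probe), without PTPRC or CD3E, and 2 of 7 endothelial genes, without PECAM1 or CDH5. The mean log2 level of the measured leukocyte genes ran from 6.25 to 6.43 on the 4 h arrays and from 6.61 to 6.85 on the 72 h arrays, without overlap, and that of the fibroblast genes from 6.11 to 6.25 and from 6.16 to 6.40, with overlap. For the keratinocyte and carcinoma genes it ran from 9.63 to 9.88 and from 9.84 to 10.13, also with overlap. Their part in the changes below was not tested.

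The 3 largest rises among all called genes were those of secreted chemokines, all known NF-kB targets. CCL20, the ligand of CCR6, had levels of 5.19, 5.24 and 5.54 (lowest, median and highest of 6 arrays, background-corrected and quantile-normalised log2 intensity) at 4 h and of 10.98, 11.05 and 11.31 at 72 h. It was detected on 1 of 6 arrays at 4 h and on all at 72 h, the groups lay far apart, and the log2 change was 5.81 ± 0.08 (SE, limma adjusted p = 1.36e-27), measured from a 4 h level near background. CXCL8, the neutrophil chemoattractant interleukin-8, went from 5.99, 6.56 and 6.85 to 11.003, 11.30 and 11.50, a log2 change of 4.80 ± 0.13 (adjusted p = 1.49e-20). CXCL1, a ligand of the same receptor, CXCR2, went from 5.51, 5.80 and 6.05 to 9.77, 10.09 and 10.29, a log2 change of 4.27 ± 0.12 (adjusted p = 1.49e-20). For all 3 chemokines every 72 h array was above every 4 h array. Of the 17 measured genes of the NF-kB and inflammatory list 13 rose and 1 fell, with a median log2 change of 1.61 against 0.00 over all genes tested.

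Some of these genes came up from below the detection limit. CXCL2 was not detected on any 4 h array, with a mean level of 4.89 ± 0.10 (SD, n = 6), and had a mean of 8.15 ± 0.17 at 72 h, at least 6.53-fold higher when the 4 h level is set to the lowest signal that counts as detected (limma adjusted p = 1.64e-20). TNF, the cytokine that itself activates NF-kB, was likewise undetected at 4 h (4.72 ± 0.04) and reached 7.22 ± 0.19, at least 3.41-fold higher (adjusted p = 6.98e-19). RELB, an NF-kB subunit, was detected at both times, at 5.51, 5.68 and 5.83 and then at 7.86, 8.03 and 8.26, a rise of 2.37 ± 0.09 (adjusted p = 2.64e-17). The remaining members of the list that rose were CXCL10 by 2.13, TNFAIP3 by 2.12, NFKB2 by 1.61, NFKBIA by 1.16, CCL2 by 0.93 and LIF by 0.70 on the log2 scale, CXCL10 from detection on 2 and LIF from detection on 1 of 6 arrays at 4 h. IL1A, undetected at 4 h with a mean of 4.98, reached 5.87, at least 1.34-fold higher. TNFAIP3 and NFKBIA encode inhibitors of the pathway and NFKB2 a precursor of one of its subunits. NFKBIE, another inhibitor of the IkB family, fell by 0.33. Not called were CXCL3 (-0.01), NFKB1 (0.04) and ICAM1 (0.24). With the filter set to detection at p under 0.01 on all 24 arrays most of these genes left the test, and 2 higher and 1 lower remained. Of the 13283 genes tested 190 were undetected on every 4 h array and detected on all 6 at 72 h, and 13 went the other way. Every 72 h array also had more probes detected (21853 to 23405) than any 4 h array (21059 to 21680). The part of this array-wide difference in these counts was not tested.

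**Figure D1:**
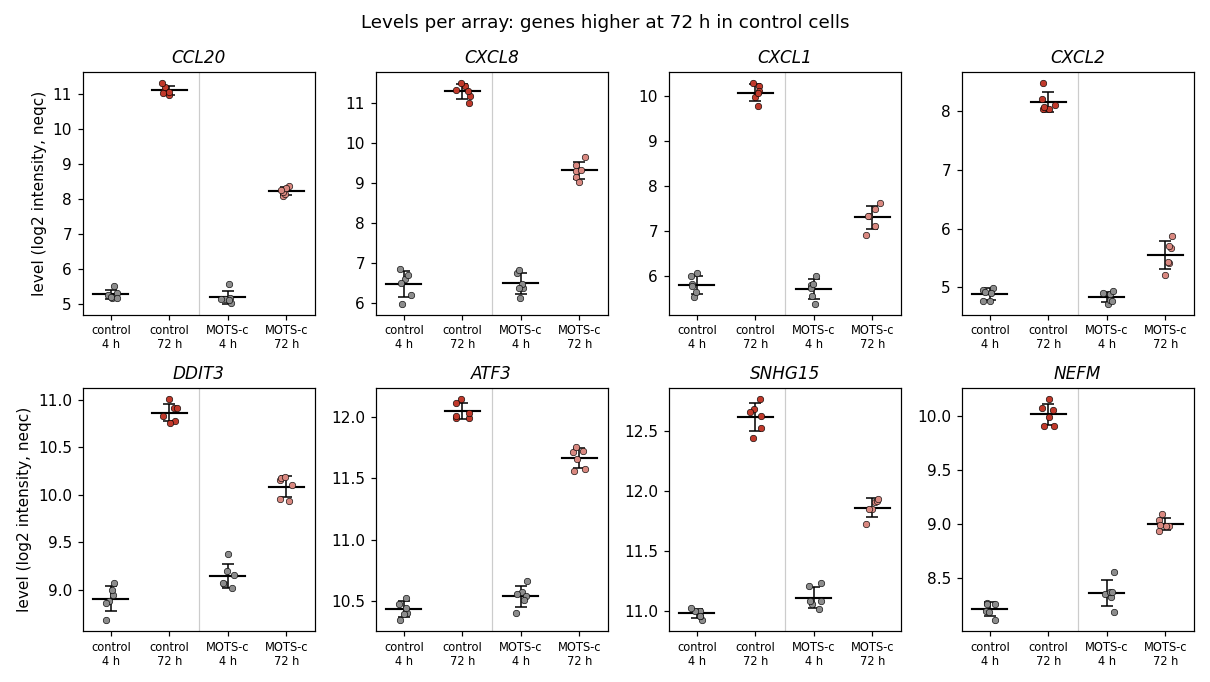
Level of 8 genes on each of the 24 arrays, on a log2 intensity axis, in control cells and in cells given MOTS-c at 4 h and 72 h. Points are arrays, bars the group mean and its SD (n = 6), and the axes differ between panels and do not start at 0. In control cells each 72 h array lies above each 4 h array for all 8 genes.

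The stretches of DNA before 4 of these genes are shown because each holds a match to the kappaB consensus, the sequence that NF-kB binds. They are from RefSeq (GRCh38.p14), written 5′ to 3′ on the strand of the gene, and capitals mark the match.
CCL20, chr2:227813723-227813822, plus strand: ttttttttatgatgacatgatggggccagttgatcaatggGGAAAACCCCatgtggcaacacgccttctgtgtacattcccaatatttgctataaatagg
CXCL1, chr4:73869275-73869374, plus strand: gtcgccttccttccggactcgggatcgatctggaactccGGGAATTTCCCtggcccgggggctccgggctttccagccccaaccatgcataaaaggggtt
CXCL2, chr4:74099213-74099312, minus strand: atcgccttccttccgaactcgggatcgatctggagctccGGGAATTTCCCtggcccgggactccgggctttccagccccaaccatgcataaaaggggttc
NFKBIA, chr14:35404771-35404870, minus strand: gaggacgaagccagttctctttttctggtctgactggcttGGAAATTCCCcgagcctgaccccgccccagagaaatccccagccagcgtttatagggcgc
In these windows the match ends 67 to 71 bases before the annotated start. Searched on both strands over the 250 bases before the start, the kappaB consensus was found for 9 of the 13 measured list genes that have a window (69.2%) and for 872 of 10615 genes tested (8.21%). CXCL3 and NFKB1 hold a match too, although their transcripts were not called, and CXCL8, TNF and IL1A rose without one in this window. The match is a description of the sequence and says nothing of binding in these cells.

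Immediate early genes were higher as a group. They are transcribed within minutes of a growth factor or stress signal, before any new protein is made. Of 22 measured genes 17 rose and 1, the phosphatase gene DUSP6, fell, and the median log2 change was 0.85. FOS, a subunit of the AP-1 factor, had levels of 5.25, 5.62 and 6.01 at 4 h, where 4 of 6 arrays detected it, and of 7.25, 7.42 and 7.57 at 72 h. Its rise was 1.80 ± 0.10 (adjusted p = 1.26e-14). ATF3, a stress-induced repressor, went from 10.35, 10.43 and 10.53 to 11.98, 12.02 and 12.14, a rise of 1.61 ± 0.06 (adjusted p = 1.42e-18), and EGR1, a zinc finger factor, from 8.86, 8.91 and 9.12 to 10.36, 10.52 and 10.63, a rise of 1.56 ± 0.08 (adjusted p = 2.07e-15). FOSB rose by 1.75 and KLF6 by 1.38, and neither had overlapping groups. MYC rose by 0.78 ± 0.06 (adjusted p = 1.76e-11).

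Genes of the amino acid response also moved upward. ATF4 targets are raised when charged transfer RNA is short or when unfolded protein builds up. Of 27 measured genes 18 rose and 2 fell, with a median log2 change of 0.42. DDIT3, which encodes the stress factor CHOP, went from 8.69, 8.92 and 9.07 to 10.76, 10.87 and 11.004, a rise of 1.96 ± 0.07 (adjusted p = 5.38e-18). GDF15, a secreted stress hormone, went from 5.70, 5.99 and 6.16 to 7.82, 7.996 and 8.37, a rise of 2.07 ± 0.10 (adjusted p = 3.1e-15). For both genes the groups were fully apart, as they were for TRIB3, a pseudokinase that binds AKT, which rose by 1.41 ± 0.08 from a median of 11.06 to one of 12.40. The ATF4 partner gene CEBPG rose by 1.12 and CHAC1, which degrades glutathione, by 1.05, the last from detection on 3 of 6 arrays to detection on all. The 2 members that fell were PHGDH, the first enzyme of serine synthesis (-0.38), and SLC38A2, a neutral amino acid transporter (-0.82).

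The response was not uniform within the list. ASNS, the asparagine synthetase gene that is among the best known ATF4 targets, had levels of 12.33, 12.50 and 12.65 at 4 h and 12.47, 12.51 and 12.64 at 72 h, with overlapping groups and a log2 change of 0.02 ± 0.08 (adjusted p = 0.807), and its second probe gave -0.35. ATF4 itself was not called (0.07). SESN2, an inhibitor of mTORC1, rose by 0.39 ± 0.09 (adjusted p = 0.000577). Of 18 measured aminoacyl-tRNA synthetase genes 10 rose and 6 fell, led by SARS1, the cytosolic seryl enzyme, from 10.12, 10.23 and 10.36 to 11.05, 11.39 and 11.46 (1.10 ± 0.07, adjusted p = 1.04e-12). YARS1 (0.57), KARS1 (0.55) and FARSA (0.65) rose less, and the groups of none of these 4 genes overlapped.

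Promoter windows of CHAC1, from the amino acid list, and of ATF3, from the immediate early list, are shown because they hold a match to the composite C/EBP-ATF element, the kind of site that ATF4 binds together with C/EBP factors. The letters searched were TGATGNAA on both strands, and capitals mark the match (RefSeq, GRCh38.p14, 5′ to 3′ on the strand of the gene).
CHAC1, chr15:40953222-40953319, plus strand: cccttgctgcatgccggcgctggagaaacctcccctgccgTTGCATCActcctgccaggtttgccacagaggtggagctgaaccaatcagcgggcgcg
ATF3, chr1:212565176-212565273, plus strand: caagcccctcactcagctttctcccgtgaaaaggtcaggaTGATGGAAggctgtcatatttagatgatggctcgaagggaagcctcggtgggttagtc
These letters were found for 5 of 24 genes of the amino acid list that have a window (20.8%), for 3 of 15 aminoacyl-tRNA synthetase genes (20%) and for 273 of 10615 genes tested (2.57%). CHAC1 and CEBPG rose and hold a match, and ASNS holds one although it was not called. DDIT3, TRIB3, GDF15 and SARS1 rose without a match in the 250 bases before the start. As for kappaB, a match describes the sequence and says nothing of binding in these cells.

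Stress programmes other than that of ATF4 moved in different directions. HSPA5, the main chaperone of the endoplasmic reticulum, went from 9.46, 9.63 and 9.68 to 10.45, 10.52 and 10.58, a rise of 0.91 ± 0.05 (adjusted p = 1.53e-13), yet of the 16 measured chaperone genes of that compartment 7 rose and 8 fell, among the latter DNAJC3 by 0.62. Of 14 genes of the cytosolic heat shock list, which also holds the mitochondrial chaperonin genes HSPD1 and HSPE1, 11 fell and 1 rose. HSPH1 fell by 0.73 and CHORDC1 by 0.89, and HSPA1B, whose probe may also read its near-identical neighbour HSPA1A, fell by 0.51. HMOX1, the haem-degrading NRF2 target, rose by 1.20 ± 0.09 from levels of 7.76 to 8.34 to levels of 9.07 to 9.41, while GCLM, a glutathione synthesis subunit and also an NRF2 target, fell by 0.69, and the NRF2 list as a whole had 6 of 14 genes higher and 5 lower. Of 7 metallothionein and zinc genes 5 rose, led by MT1X (0.75), whose close relatives may share its signal, and the zinc exporter gene SLC30A1 fell by 0.94.

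Targets of p53 rose in 10 of 18 cases and fell in 1, with a median log2 change of 0.38. GADD45A, a growth arrest gene, went from 10.69, 10.79 and 11.09 to 11.73, 11.85 and 12.06, a rise of 1.06 ± 0.08 (adjusted p = 1.16e-11), and the DNA damage recognition genes DDB2 and XPC rose by 0.75 and 0.47. HEK293 cells carry adenoviral proteins that bind p53, which limits what this list can show. CDKN1A, the p21 inhibitor gene, rose by 0.53 ± 0.08 (adjusted p = 3.01e-06). One member, GADD45A, reached 2-fold.

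Small nucleolar RNA host genes rose together. These transcripts carry box C/D or H/ACA RNAs in their introns, which guide the modification of ribosomal RNA, and many are removed quickly by decay that depends on translation. All 12 measured genes of the list rose, with log2 changes from 0.35 to 1.63 and a median of 0.76, and for 11 of them the groups did not overlap. Under median scaling and with the deposited scores 11 rose. SNHG15 went from 10.93, 10.98 and 11.03 to 12.44, 12.64 and 12.77, a rise of 1.63 ± 0.06 (adjusted p = 3.01e-18), and SNHG17 from 9.62, 9.67 and 9.84 to 11.05, 11.18 and 11.26, a rise of 1.47 ± 0.08 (adjusted p = 1.38e-14). ZFAS1 and SNHG1 rose by 1.10 and 0.85. Ribosome biogenesis genes rose in 14 of 24 cases and fell in 2. RRP12, a factor for export and maturation of the ribosomal subunits, went from 8.21, 8.47 and 8.64 to 10.00, 10.07 and 10.14 (1.63 ± 0.06, adjusted p = 2.64e-17), and BYSL and NOP2, which act in subunit assembly and ribosomal RNA methylation, rose by 0.87 and 0.84. Of the ribosomal protein genes themselves 30 of 34 were not called, 2 rose and 2 fell, with a median of 0.03, but 16 rose under median scaling and 9 with the deposited scores.

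Histone genes had the lowest median of the 38 pathway lists. RNA was primed with oligo-dT, and most messages of the replication-dependent histone genes end in a stem-loop with no poly(A) tail, so the arrays read the polyadenylated part of them. Near-identical copies within the clusters may share a probe, which makes the assignment to a single gene uncertain. Of 17 measured histone genes 13 fell and 0 rose, 10 of them by at least 2-fold, with a median log2 change of -1.10, and under median scaling 12 fell and 1 rose. The 10 include H2BC4, whose estimate of -1.10 equals the list median. It was undetected on every 72 h array, and its bound is a fall of at least 1.68-fold. H2AC4 was also undetected on every 72 h array, at least 1.72-fold lower. H2AC6 had levels of 8.41, 8.57 and 8.67 at 4 h and of 6.39, 6.53 and 6.77 at 72 h, a log2 change of -1.9985 ± 0.09 (adjusted p = 2.73e-16). H2BC21 went from 8.79, 8.87 and 9.05 to 6.78, 6.92 and 7.01 (-1.98 ± 0.07, adjusted p = 6.98e-19). The linker histone gene H1-2 went from 11.75, 11.80 and 11.90 to 9.75, 9.96 and 10.26 (-1.85 ± 0.08, adjusted p = 4.16e-16). The groups did not overlap for any of the 3. Not called were H4C3 (0.08), H3C2 (-0.22), the replacement histone gene H3-3B (-0.01) and H2AX (0.16), a variant whose gene also gives polyadenylated messages.

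Windows of the first 2 of these histone genes are shown because they hold a CCAAT box, the pentamer that the factor NF-Y binds in many histone promoters. The letters searched were CCAAT on both strands, and capitals mark each match (RefSeq, GRCh38.p14, 5′ to 3′ on the strand of the gene).
H2AC6, chr6:26124064-26124158, plus strand: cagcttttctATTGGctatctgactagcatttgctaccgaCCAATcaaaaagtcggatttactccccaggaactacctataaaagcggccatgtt
H2BC21, chr1:149886705-149886799, minus strand: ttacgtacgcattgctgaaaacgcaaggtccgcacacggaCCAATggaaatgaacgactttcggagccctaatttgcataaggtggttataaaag
CCAAT was found in the 250 bases before the start of 15 of 16 measured histone genes with a window (93.8%), and of 4445 of 10615 genes tested (41.9%). H3C2, H3-3B and H2AX, which were not called, hold the box too, and H4C8, which fell, does not.

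Genes of the cell cycle moved less than the histone genes did. Of 30 mitosis and G2/M genes 18 fell and 5 rose, with a median of -0.23. CENPA, the centromeric histone H3 variant gene, went from 10.11, 10.18 and 10.32 to 9.32, 9.38 and 9.47, a fall of 0.81 (SE 0.06, adjusted p = 2.8e-12), and CCNB2 and CCNA2, cyclin genes of mitosis and of S phase, fell by 0.62 and 0.54. AURKB, a mitotic kinase gene, went the opposite way, from 11.17, 11.35 and 11.44 to 11.89, 12.02 and 12.16 (0.70 ± 0.07, adjusted p = 3.61e-09), and MKI67, the gene of the Ki-67 antigen, rose by 0.43 ± 0.14 (adjusted p = 0.00763) with overlapping groups and lost the call with array brightness as a covariate (0.18, adjusted p = 0.236). Of 30 DNA replication and G1/S genes 9 fell and 6 rose. MCM6, a subunit of the replicative helicase, fell by 0.58 and POLA1, the catalytic subunit of polymerase alpha, by 0.51. PCNA, the sliding clamp gene, fell by 0.52 by its brightest probe, its 3 probes ranged from -0.52 to 0.13, and their mean was not called (-0.13, adjusted p = 0.0552). Of 15 cyclin-dependent kinase inhibitor and growth arrest genes 4 rose and 6 fell. CDKN2D, which encodes p19, rose by 1.46 ± 0.08 from levels of 8.32 to 8.53 to levels of 9.60 to 10.15, CDKN1B, which encodes p27, fell by 0.71, and CDKN1C was not called (-0.12 ± 0.08, adjusted p = 0.196), except with brightness as a covariate (-0.23, adjusted p = 0.0197) or without replicate 5 at 4 h (-0.19, adjusted p = 0.0348). RB1 fell by 0.88 and CCND1 by 0.52.

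Genes of sterol synthesis fell together. Of 19 measured genes of the cholesterol list 14 fell and 0 rose, with a median log2 change of -0.51. HMGCS1, which makes the precursor of mevalonate, had levels of 12.35, 12.41 and 12.52 at 4 h and of 10.77, 11.06 and 11.36 at 72 h, a fall of 2.52-fold (-1.34 ± 0.09, adjusted p = 1.38e-12). MSMO1, a sterol C4 methyl oxidase, went from 11.32, 11.52 and 11.63 to 9.73, 9.87 and 10.08 (-1.62 ± 0.07, adjusted p = 2.52e-16), but its 3 probes ranged from -1.62 to 0.30. IDI1, the isopentenyl isomerase, fell by 1.37 and INSIG1, the sterol-regulated retention protein of SREBP, by 0.96. The 5 genes not called were MVK, PMVK, HSD17B7, SC5D and SREBF2, the gene of the SREBP-2 factor. Fatty acid synthesis and desaturation genes fell in 9 of 12 cases and rose in 2, among them FADS2 by 1.21, FADS1 by 0.80, ELOVL6 by 0.82 and SCD by 0.68, while FASN, the synthase itself, was not called (-0.08 ± 0.10, adjusted p = 0.523) except with brightness as a covariate (-0.25, adjusted p = 0.032).

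**Figure D2:**
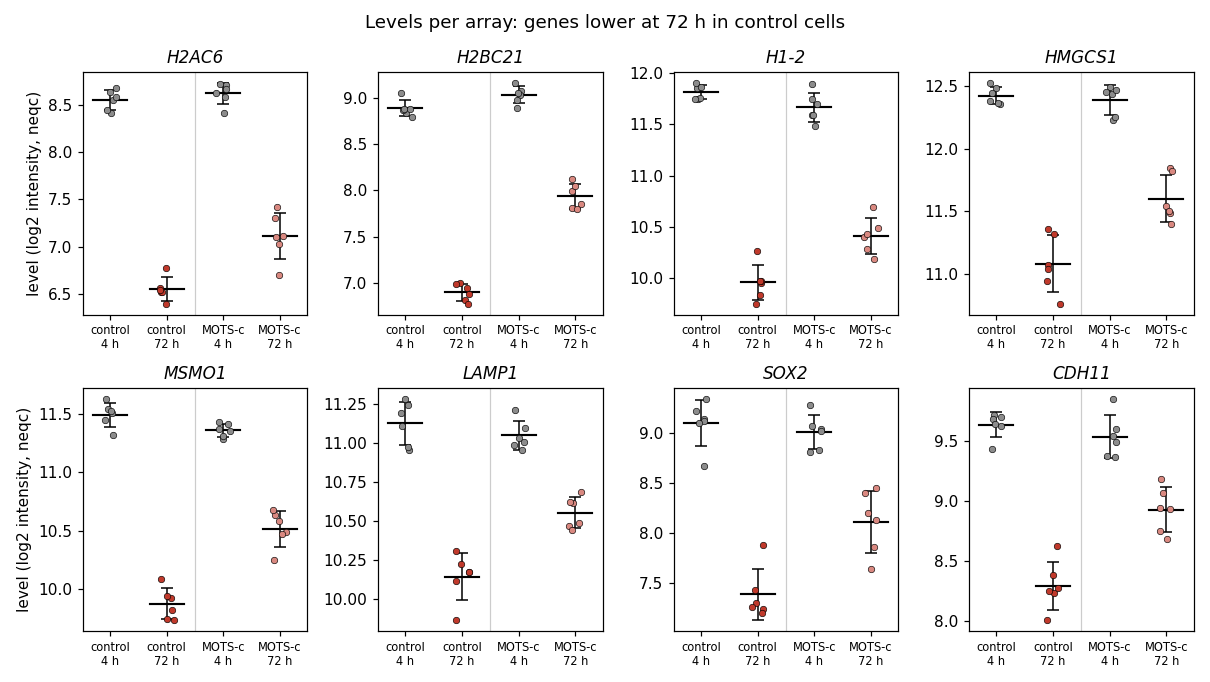
Level of 8 genes on each of the 24 arrays, on a log2 intensity axis, in control cells and in cells given MOTS-c at 4 h and 72 h. Points are arrays, bars the group mean and its SD (n = 6), and the axes differ between panels and do not start at 0. In control cells each 72 h array lies below each 4 h array for all 8 genes.

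Of 32 autophagy and lysosome genes 19 fell and 5 rose, with a median of -0.33. LAMP1, a major lysosomal membrane protein gene, went from 10.96, 11.15 and 11.28 to 9.86, 10.17 and 10.31, a fall of 0.98 (SE 0.07, adjusted p = 9.78e-12). ATP6V1H, a subunit of the lysosomal proton pump, fell by 1.16, WIPI2, which acts in autophagosome formation, by 1.04 and ULK1, the kinase that starts autophagy, by 0.73. Among the largest falls of all genes were RRAGB, a Rag GTPase that carries the amino acid signal to mTORC1, from 8.84, 9.08 and 9.18 to 7.13, 7.32 and 7.44 (-1.72 ± 0.07, adjusted p = 6.29e-17), and MFSD1, a lysosomal transporter, from 8.66, 8.94 and 9.05 to 6.86, 7.18 and 7.5 (-1.74 ± 0.08, adjusted p = 1.03e-15). ATP6V1C1, another pump subunit, was detected on 6 arrays at 4 h and on 3 at 72 h, at 7.00, 7.35 and 7.59 and then 5.14, 5.37 and 5.89 (-1.89 ± 0.15, adjusted p = 1.75e-11), and its second probe gave -0.55. VPS50, an endosome recycling gene, fell by 1.71 ± 0.14, with levels of 8.16 to 8.31 at 4 h and, at 72 h, of 6.22 to 6.41 on 5 arrays and 7.45 on replicate 5.

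Energy metabolism changed by small steps. Of 48 nuclear-encoded oxidative phosphorylation genes 21 fell and 4 rose, with a median of -0.12, and the complex I subunit gene NDUFA6 fell by 0.77 and the ATP synthase gene ATP5MC3 by 0.94. Fatty acid oxidation genes fell in 13 of 21 cases and rose in 3, with ACAA2 down by 0.73 and ETFA by 0.58, whereas CPT1C, a brain-type carnitine palmitoyltransferase gene, rose by 1.01. Of 26 genes of the TCA cycle and pyruvate entry 9 rose and 11 fell, among the latter PDK2, a kinase that restrains pyruvate dehydrogenase (-0.84). Glycolysis genes rose in 7 of 18 cases and fell in 3. PFKP rose by 0.43 and PFKM, another phosphofructokinase gene, fell by 0.52, SLC2A1, the glucose transporter GLUT1, fell by 0.43, and LDHA was not called (0.13 ± 0.06, adjusted p = 0.061), with 3 probes from -0.74 to 0.13 whose mean fell by 0.18 (adjusted p = 0.0279). Leaving out replicate 2 at 4 h or replicate 1 at 72 h brought LDHA past the threshold (0.16 and 0.15). Hypoxia response genes were split, with 8 of 20 higher and 9 lower. DDIT4, an inhibitor of mTORC1, went from 10.15, 10.28 and 10.58 to 11.18, 11.46 and 11.50 (1.08 ± 0.08, adjusted p = 2.42e-11), while ADM, the adrenomedullin gene, went from 10.98, 11.08 and 11.20 to 10.39, 10.43 and 10.51 (-0.65 ± 0.06, adjusted p = 3.5e-10).

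One-carbon and insulin pathway genes gave a few larger changes. MAT2A, which makes S-adenosylmethionine from methionine, went from 12.23, 12.37 and 12.44 to 13.51, 13.72 and 13.88, a rise of 1.37 ± 0.07 (adjusted p = 2.95e-15), and the polyamine enzyme genes AMD1 and ODC1 rose by 0.98 and 0.86. In the list of the folate and methionine cycle 9 of 19 genes rose and 4 fell. De novo purine synthesis genes rose in 4 of 12 cases and fell in 1, but under median scaling 1 rose and 1 fell, and GART moved from 0.37 to 0.26 (adjusted p = 0.0536). IRS1, the insulin receptor substrate, fell by 1.18 ± 0.10 (adjusted p = 4.67e-11) from levels of 7.67 to 8.03 to levels of 6.28 to 7.05, and FOXO1 fell by 0.48. TXNIP, a brake on glucose uptake, rose by 0.55 ± 0.09 (adjusted p = 5.37e-06), from 10.25, 10.41 and 10.75 to 10.84, 11.01 and 11.12, and its relative ARRDC3 rose from undetected (5.28 ± 0.11, SD, n = 6) to 6.37 ± 0.25, at least 1.89-fold (adjusted p = 1.8e-09).

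**Figure D3:**
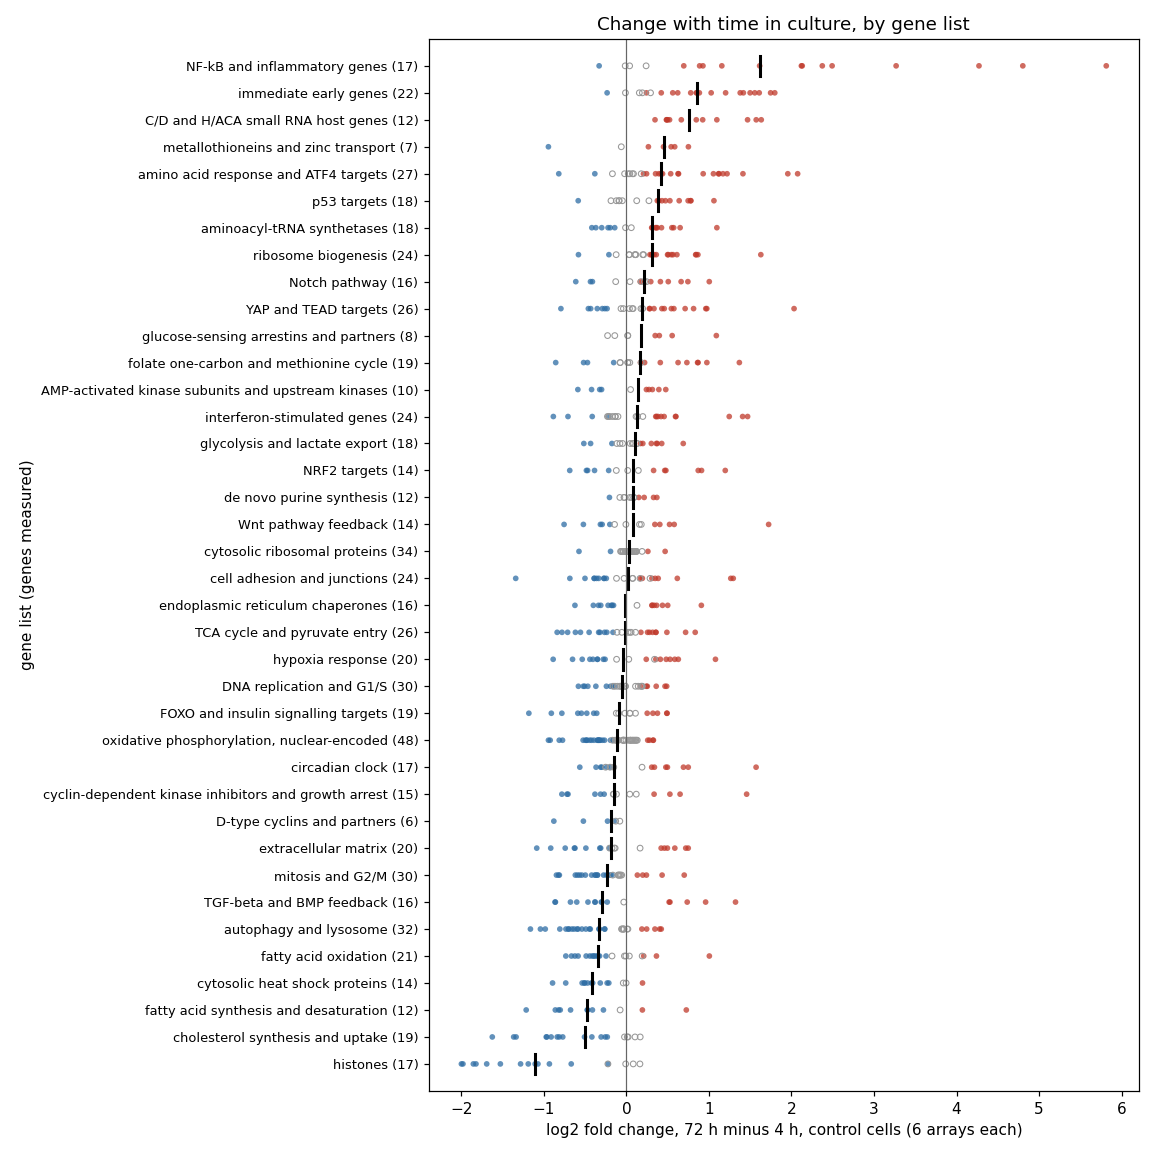
Log2 fold change from 4 h to 72 h in control cells (horizontal axis) of every measured gene in 38 lists (rows, with the number measured). Filled points are called genes (red higher, blue lower), open points are not called, and black bars are list medians. The medians run from -1.10 for histones to 1.61 for the NF-kB list.

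Of 17 neuronal and neuroendocrine genes 11 rose and 1, UCHL1, fell, with a median of 0.60. NEFM, the medium neurofilament gene, went from 8.11, 8.22 and 8.27 to 9.91, 10.03 and 10.16, a rise of 1.81 ± 0.06 (adjusted p = 6.98e-19), and NEFH rose by 0.91. STMN4, a stathmin gene of the nervous system, was among the largest rises, at 2.38 ± 0.10. SOX2, a stem cell and neural progenitor factor, fell from 8.66, 9.13 and 9.34 to 7.20, 7.28 and 7.88 (-1.71 ± 0.13, adjusted p = 1.38e-11), and HOXA2, a hindbrain patterning gene, fell by 1.56. Among 24 adhesion genes 8 rose and 10 fell, with a median of 0.02, shares near those of all genes. CDH1, the E-cadherin gene, went from 8.26, 8.40 and 8.43 to 9.58, 9.69 and 9.76 (1.29 ± 0.07, adjusted p = 4.33e-15), and CDH11, a mesenchymal cadherin gene, from 9.43, 9.66 and 9.72 to 8.01, 8.26 and 8.62 (-1.34 ± 0.10, adjusted p = 3.9e-12). Of 20 matrix genes 6 rose and 9 fell, COL4A5 by 1.09 and COL5A1 by 0.92. YAP and TEAD targets rose in 12 of 26 cases and fell in 7, with ANKRD1 at 7.39, 7.59 and 8.32 and then 9.64, 9.72 and 9.79 (2.03 ± 0.11, adjusted p = 1.21e-14), and CCN1 and CCN2 higher by 0.97 and 0.96. With detection at p under 0.01 required on all 24 arrays, 5 YAP and TEAD targets rose and 4 fell, and 6 neuronal genes rose.

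Developmental signalling lists held changes in both directions, and a difference between the lists was not tested. In the Wnt list, 5 of 14 rose and 5 fell, shares near those of all genes. NKD2, a feedback inhibitor, rose by 1.72 ± 0.06, while AXIN2, the usual reporter of the pathway, fell by 0.29. In the Notch list 8 of 16 rose and 3 fell, with NRARP (1.004) and DLL3 (0.75) higher and HES1, a direct target, lower (-0.44). In the TGF-beta and BMP list 5 of 16 rose and 10 fell, with a median of -0.30, and INHBE, an activin subunit gene, was higher by 1.32. SMAD6 and ID1, both targets of BMP signals, fell by 0.86 and 0.30. Interferon-stimulated genes were divided as well, with 10 of 24 higher and 4 lower. ISG15, a ubiquitin-like modifier, rose by 1.41 ± 0.13 and MX1, an antiviral GTPase, by 1.25 ± 0.11, while IFIT1, which binds viral RNA, fell by 0.88 ± 0.09, and the groups overlapped for none of the 3. Among circadian genes PER2 rose by 1.57 ± 0.10, from 6.64, 6.80 and 6.94 to 8.04, 8.48 and 8.54, and 7 of 17 listed genes rose against 6 that fell. The harvest hour is not given by the labels, so clock phase and time in culture cannot be told apart.

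Several of the largest changes belonged to genes outside the lists. IL32, a cytokine gene, rose from 5.82, 5.96 and 6.22 to 9.11, 9.43 and 9.59 (3.43 ± 0.11, adjusted p = 6.98e-19). LAD1, a basement membrane protein gene, rose from 6.54, 6.75 and 6.91 to 9.48, 9.53 and 9.83 (2.85 ± 0.08, adjusted p = 1.78e-20). The probes named for the hair keratin-associated genes KRTAP19-1 and KRTAP19-6 rose by 3.32 and 3.07, and members of that family resemble each other closely, so the source of the signal is uncertain. NAPSB, TCIM and CYP2F1 were undetected on every 4 h array and detected on all 72 h arrays, at least 4.28-fold, 3.33-fold and 3.52-fold higher. SNORD13, a small nucleolar RNA probe, rose by 2.71 ± 0.27 with wide spread, from levels of 6.01 to 7.29 to levels of 8.31 to 10.33.

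The cells given MOTS-c went through the same interval on separate arrays. There 5067 genes were called between 72 h and 4 h (38.1%), 2645 higher (19.9%) and 2422 lower (18.2%). Of the 4237 genes higher in control cells 1938 were called higher in treated cells and 172 lower, and of the 4083 lower in control cells 1628 were called lower and 128 higher. Across genes, which are not independent replicates, the log2 changes correlated at a Pearson r of 0.661 and a Spearman rho of 0.608, and their SD was 0.48 in control and 0.29 in treated cells. A change of at least 2-fold was called for 591 genes in control and for 118 in treated cells. The time changes themselves differed for 4522 genes (34%) by the interaction term in limma, with 2217 higher in treated cells (16.7%) and 2305 lower (17.4%). That term uses the same control arrays, so a gene picked for a large control change is not an independent case of a difference.

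**Figure D4:**
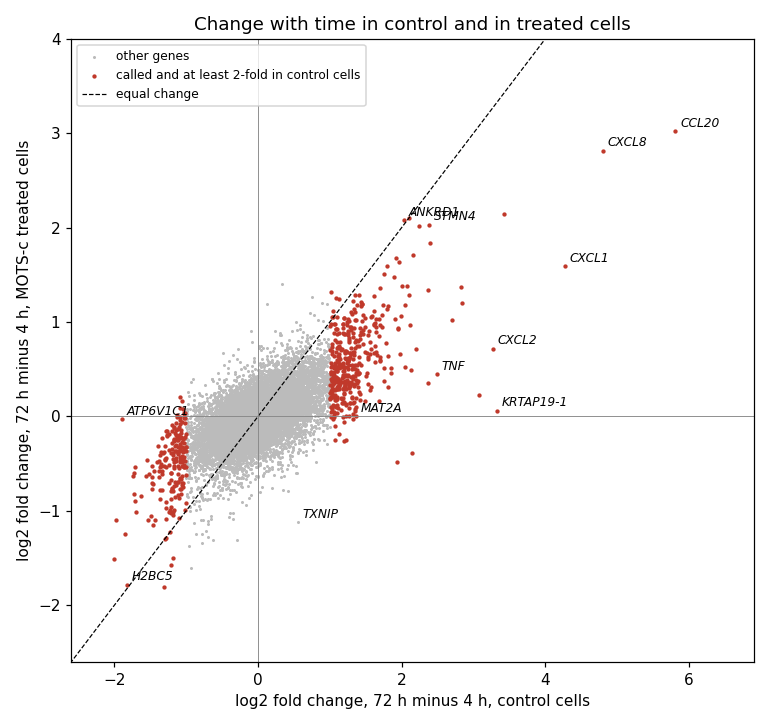
Log2 fold change from 4 h to 72 h of each of 13283 genes in control cells (horizontal axis) and in MOTS-c treated cells (vertical axis), with no array in common. Red points are the 591 genes called with at least 2-fold change in control cells, and the dashed line marks equal change. CCL20 lies at 5.81 and 3.02, and ANKRD1 lies near the line at 2.03 and 2.08.

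Control and treated values of single genes ranged from alike to opposite. ANKRD1 rose by 2.03 and 2.08 in control and treated cells (interaction adjusted p = 0.84), and H2BC5 fell by 1.82 and 1.78. STMN4 rose by 2.38 and 2.03 (interaction adjusted p = 0.054). CCL20 at 72 h had levels of 8.08, 8.22 and 8.37 in treated cells against 10.98 to 11.31 in control cells, with time changes of 3.02 and 5.81 (interaction -2.79, adjusted p = 2.1e-15). KRTAP19-1 stayed at 6.49, 6.72 and 7.09 in treated cells (time change 0.06) and MAT2A at 12.35, 12.41 and 12.45 (time change 0.00). For both, the treated groups at 4 h and 72 h overlapped. ATP6V1C1 changed by -0.03 in treated cells against -1.89 in control cells (interaction 1.86, adjusted p = 1.7e-07). TXNIP rose by 0.55 in control cells and fell by 1.12 in treated cells, where levels went from 10.51, 10.60 and 10.85 to 9.33, 9.47 and 9.74 (interaction -1.68, adjusted p = 2e-10). COL18A1 fell by 0.74 in control cells and rose by 0.33 in treated cells, and CHAC1 rose by 1.05 in control cells and was not called in treated cells (0.00).

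By list, the NF-kB genes had 13 of 17 members with a lower and 1 with a higher time change in treated cells, and 10 of the 17 still rose there, with a median of 0.45 against 1.61 in control cells. For the small nucleolar RNA host genes 9 of 12 had a lower time change in treated cells and 10 of 12 rose, with medians of 0.36 and 0.76 in treated and control cells. Immediate early genes had 13 of 22 members with a lower time change and 1 with a higher one. The histone list had 13 of 17 members lower and 1 higher at 72 h in treated cells, with a median of -1.02 against -1.10, and 7 members had a higher and 0 a lower time change in treated cells. The cholesterol list had 12 of 19 members lower in treated cells, with a median of -0.50 against -0.51, and 5 members had a higher and 4 a lower time change there. In the mitosis list 10 of 30 genes had a higher time change in treated cells and 0 a lower one. Over all genes tested 16.7% had a higher and 17.4% a lower one. Of the 4083 genes lower in control cells 1910 had a higher time change in treated cells and 33 a lower one. Of the 4237 genes higher in control cells 1986 had a lower one and 28 a higher one. The list counts share this pattern and the same control arrays, and a difference particular to a list was not tested.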

How the data were processed

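Per the labels' protocols, total RNA was primed with oligo-dT, copied to biotin-labelled cRNA and hybridised to Illumina bead arrays. Raw probe intensity and a detection p-value per probe and array were deposited by the authors, who used GenomeStudio 2011.1, per the submitters' processing notes. The deposited score of each probe equals the Z score of log10 intensity within its array (largest difference 5e-10) and served as an alternative. The intensities were background-corrected with detection p-values, quantile-normalised and log2-transformed after an offset of 16 (neqc, limma 3.58.1, R 4.3.3), which compresses changes of dim genes. Of 47323 probes, 23931 were kept because their detection p was below 0.05 on 6 or more of the 24 arrays, and 17873 of these had 1 gene in the platform annotation. Over the whole platform 30113 probes had 1 symbol, 8 several and 17202 none. Each of 13283 genes was represented by its brightest probe (mean of the 24 arrays), and of 2335 called genes with several probes all probes had the same sign for 1768.

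One limma model with a mean for each of 4 groups of 6 arrays gave the contrasts, tested two-sided with Benjamini-Hochberg adjustment over all genes. A gene is called at an adjusted p under 0.05. A gene detected on 0 of 6 arrays of a group is given as a bound against the lowest detected signal of each array. Counts of 2-fold changes use the estimated change of every called gene. The number of arrays limits the precision. Genes were named by rule: the 15 largest changes each way that were called, had no overlap between groups and agreed in sign over their probes, the 4 members of each of 45 lists with the smallest p, a panel of genes whatever their p, and the 5 largest interaction differences each way. Other list members were named after their values were seen, to complete a count. The lists and the comparison were chosen with earlier results of these data known. Figures were drawn with matplotlib 3.10.9. Alternatives were another scaling, the deposited scores, no background correction, stricter and no detection filters, other uses of probes, array weights, a variance trend, the replicate number as a block, array brightness as a covariate, control arrays alone and each array left out. Brightness as a covariate is the mean log2 raw intensity of an array.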

Additional observations from a re-analysis of the deposited data

Results flagged for a closer look

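In a group of 6 arrays, 34 of 442 groups of values had 1 array whose distance to its nearest neighbour was over 0.625 of the group's whole range. Chance alone flags about 1 group in 20. Replicate 5 at 72 h, the brightest control array, gave 10 of the 34. Replicate 2 at 72 h stood apart in log2 level for LAD1 (9.827). Replicate 3 at 72 h stood apart in log2 level for HEYL (9.044). Replicate 5 at 72 h stood apart in log2 level for SOX2 (7.881), VPS50 (7.453), FARSA (8.885), GAS1 (9.966), CCND3 (11.16), SMAD6 (8.243), CCNG2 (7.939), CPT1C (8.083), CLDN7 (9.172) and CDKN1C (6.736). Replicate 1 at 4 h stood apart in log2 level for HSPA5 (9.457), EGR1 (9.121) and CDH11 (9.432). Replicate 2 at 4 h stood apart in log2 level for BYSL (10.29), MT1X (7.818), COL3A1 (4.91), KRT19 (11.55), VWF (4.852) and CHAC1 (5.927). Replicate 3 at 4 h stood apart in log2 level for MFSD1 (8.663). Replicate 4 at 4 h stood apart in log2 level for NAPSB (4.782), H2BC21 (9.05) and MCM6 (12.85). Replicate 5 at 4 h stood apart in log2 level for SOX2 (8.664), ISG20 (8.664), KEAP1 (8.825), ACAA2 (10.36) and BICD1 (5.707). Replicate 6 at 4 h stood apart in log2 level for HSPA1B (12.5), MX1 (7.091), COL4A1 (10.29) and CDH1 (8.261).

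Examined were 34 genes, picked for the largest control changes or for the largest called interaction differences. Of these, 32 had a time change that differed between treated and control cells by the interaction term in limma at an adjusted p under 0.05. The share over all genes tested was 34%. Genes picked for the interaction were called by the rule that picked them, so the 32 are no test of a difference. The interaction (treated minus control, log2) was below 0 for CCL20 (-2.79), CXCL8 (-1.99), CXCL1 (-2.68), IL32 (-1.28), KRTAP19-1 (-3.27), CXCL2 (-2.55), KRTAP19-6 (-2.84), LAD1 (-1.65), NAPSB (-1.46), SNORD13 (-1.69), TNF (-2.05), TCIM (-0.554), RELB (-1.03) and CYP2F1 (-2.02). It was above 0 for H2AC6 (0.488), H2BC21 (0.885), ATP6V1C1 (1.86), H1-2 (0.604), MFSD1 (1.11), RRAGB (1.12), SOX2 (0.816), VPS50 (1.17), H2BC11 (0.676), HOXA2 (0.926), GPRASP3 (1.08), H2AC18 (0.425), DDTL (0.903), H2AC19 (0.439), BICD1 (1.3), VPS13A (1.3), AMER2 (1.29) and SNORD17 (1.23). Most of these genes were picked for large changes in the control arrays that the interaction also uses.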

How the results depend on the processing

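The count of genes called between 72 h and 4 h in control cells, 8320, stayed between 6432 and 9518 under the other processing choices. The lowest count came with the stricter detection filter and the highest with no filter, so the numbers of genes tested differed. Testing each kept probe separately called 11027 probes. When each array was left out the count of genes stayed between 7967 and 8430 (4040 to 4264 higher, 3921 to 4166 lower). Asking also for 2-fold left 591, 396 higher and 195 lower. Median scaling called 7093, kept 83.2% of the calls, moved the median of all genes to -0.04 and the share of calls that were higher from 50.9% to 46%. It left 1091 falls of 2422 in treated cells, and in the interaction 1874 higher and 1144 lower in place of 2217 and 2305. In the lists it lowered the number higher by over 1.5 times for mitosis (5 to 2), DNA replication (6 to 3), oxidative phosphorylation (4 to 1), autophagy and lysosome (5 to 3), endoplasmic reticulum chaperones (7 to 4), adhesion (8 to 4) and FOXO targets (5 to 3), and the number lower for clock genes (6 to 3). The stricter detection filter, which tests fewer dim genes, lowered the number higher for TGF-beta (5 to 3), Wnt (5 to 2), clock (7 to 4) and leukocyte genes (3 to 1). At an adjusted p under 0.01 treated cells had 1590 falls, and the interaction had 2980 calls, 1381 higher. The counts without each array ranged from 4509 to 4964 (treated) and from 4078 to 5097 (interaction). The difference in mean intensity ranged from -85.244 to -45.671, and without replicate 5 at 72 h it passed the threshold. With the replicate number as a block, 8273 genes were called. Same-numbered arrays did not deviate together (r from -0.26 to 0.2, with 1 of 6 numbers best matched by its partner), so the numbers are not taken as pairs. Over all called genes, brightness as a covariate kept 82.7% of the calls. Many of the named genes were chosen for a small p or a large change, which favours keeping the call, so they do not stand for all called genes. Of 207 called named genes 194 kept call and direction in every setting that measured them. The exceptions were PCNA, CDK6, CCND3, RPS23, MLX, MLXIPL, GART, PFAS, CD14, LUM, KRT8, KRT19 and MKI67, of which CDK6, CCND3, KRT8 and KRT19 lost the call on leaving out 1 array. Direction turned for MLX (-0.091), EPCAM (-0.0677), LDHA (-0.185) and ASNS (-0.165) with the mean of the probes, for ASNS also with median scaling (-0.0614) and without replicate 1 at 4 h (-0.0113, range on leaving out each array -0.0113 to 0.0532), for LYZ with brightness as a covariate (-0.0651), and for SERPINA1 without replicate 1 or 6 at 72 h or 1 at 4 h (0.00988 to 0.0178, range -0.0689 to 0.0178). The cause was not tested. Genes near background, such as CCL20 at 4 h, have folds limited by signal over background.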

Other observations

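Insulin and energy sensing genes outside those described above were divided in control cells. Over all genes tested 31.9% rose and 30.7% fell, and the counts of this section are to be read against these shares. Of 19 FOXO and insulin signalling targets 5 rose and 8 fell, with BCL6, a transcriptional repressor, at a log2 change of -0.91 ± 0.09 and CCNG2, a cyclin that FOXO factors induce, at -0.78 ± 0.12 (limma adjusted p = 2.1e-06). In the list of AMP-activated kinase and the kinases that act on it, 5 of 10 genes were called higher and 4 lower. PRKAB1 and PRKAB2, both regulatory beta subunits, rose by 0.39 and 0.48, and PRKAA2, a catalytic subunit, fell by 0.59 and was detected on 3 of 6 arrays at 72 h. Under median scaling 2 of these genes rose and 4 fell. Of 8 glucose-sensing arrestin genes and partners 4 rose and 0 fell, and of 6 D-type cyclin genes and partners 4 fell and 0 rose.

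Among markers of other lineages, LHX1 and EYA1, transcription factor genes of the developing kidney, were the 2 of 6 measured kidney genes that fell (-0.64 and -0.33), and 0 rose. That share lower, 33.3%, is near the 30.7% of all genes tested. Of the keratinocyte and carcinoma markers 3 of 5 rose, led by SFN, an epithelial 14-3-3 protein gene, at 0.68 ± 0.11. The other two, KRT8 and KRT19, lost the call under median scaling, with brightness as a covariate and on leaving out some single arrays, among them replicate 4 at 4 h (adjusted p = 0.0589 and 0.114). Fibroblast markers rose in 3 of 5 cases and fell in 1, PDGFRA, which was detected on 6 arrays at 4 h and on 1 at 72 h. Leukocyte markers rose in 3 of 6 cases, CD8A by 1.22 from detection on 1 of 6 arrays to detection on all. Both measured endothelial markers rose, VWF from undetected to detected (at least 1.18-fold), and neither hepatocyte marker was called (ALB -0.13, adjusted p = 0.424, and SERPINA1 -0.02, adjusted p = 0.897). The filter keeps a probe detected on 6 arrays, so VWF and CD8A would pass it on their 72 h control arrays alone. With detection at p under 0.01 required on all 24 arrays, 0 endothelial genes and 1 leukocyte gene rose.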
